A study of Mus musculus with 6 samples.

Results

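The Meis, Pbx, Pknox and Tgif families, 9 TALE-class homeobox genes in all, were followed in leukemia-initiating cells (LICs) of the MLL-AF9 mouse model. The genes are Meis1, Meis2, Meis3, Pbx2, Pbx3, Pbx4, Pknox1, Pknox2 and Tgif1, taken by gene symbol as 9 of the 27179 genes listed. The cells came from Lin- fetal liver cells of Asic3+/+ or Asic3-/- mice on a C57BL/6 background. They had been infected with an MSCV retrovirus that carries the MLL-AF9 fusion and YFP and had been transplanted into irradiated C57BL/6 recipients, so that both groups carry the same oncogene. YFP+Mac-1+c-Kit+ cells were sorted from bone marrow. RNA was sequenced as 3 libraries labelled WT (Asic3+/+) and 3 labelled Asic3-null (Asic3-/-), with an age given as 8 weeks and no other treatment. The labels do not say whether each library is a separate mouse. The paper states in general that experiments had at least 3 biological repeats unless otherwise indicated, without naming these libraries. The p values therefore measure the spread between libraries, which may be technical. The question put to these genes was how Meis1 stood against its paralogs and PBX partners in the 2 groups.

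TALE homeodomain proteins carry a short extra loop in the homeodomain through which PBX proteins contact HOX proteins. PBX proteins (PBX2, PBX3 and PBX4 here) bind DNA together with either a MEIS or a PKNOX protein and often with a HOX protein, while TGIF1 recognizes a MEIS-like site and recruits corepressors. MEIS1 is well known in hematopoietic stem cells and in MLL-rearranged leukemia, where it acts with HOXA9 and PBX partners.

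Values are RPKM, that is, reads per length of gene and per size of library, so that levels of different genes are compared per length. Read numbers given below were inferred from the RPKM and are no statement of the authors. The inferred library size was 1947168 to 2367414 reads in the libraries labelled WT and 2315406 to 2381861 in those labelled Asic3-null. Asic3, the gene deleted in the null strain, was higher in the libraries labelled Asic3-null. It had 1.22, 1.85 and 0.435 RPKM in the libraries labelled WT and 9.12, 4.11 and 6.58 RPKM in those labelled Asic3-null. The log2 fold change was 1.81 (SE 0.35, limma adjusted p = 0.0260), and the adjusted p was 0.0761 without WT 1, 0.0655 without WT 3, 0.0961 without Asic3-null 1, 0.1003 without Asic3-null 3 and 0.0623 with no filter on low values. Whether labels were exchanged, or whether these reads lie outside the deleted part of the gene, was not tested. Directions below are therefore those of the libraries as labelled. The groups also differed in sex-linked genes. In the libraries labelled Asic3-null, Xist was at 46.5 to 71.9 RPKM, and it was at most 0.0573 RPKM in those labelled WT. The Y-linked Ddx3y, Kdm5d, Uty and Eif2s3y were above 0 only in the libraries labelled WT, where Ddx3y had 15.7 to 23.8 RPKM. Sex and the genotype label cannot be told apart in any comparison below.

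The start regions of the 2 genes whose libraries did not overlap between the groups, Meis1 and Pbx4, are shown first. A link between their levels and these regions was not tested. Each region runs from 250 bases before to 50 bases after a RefSeq transcript start (GRCm38.p6), 5′ to 3′ on the gene's strand. Capitals mark CCAAT boxes on either strand and, in Pbx4, the core letters of the cAMP-response element bound by CREB.

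Meis1, chr11:19018920-19019219, minus strand: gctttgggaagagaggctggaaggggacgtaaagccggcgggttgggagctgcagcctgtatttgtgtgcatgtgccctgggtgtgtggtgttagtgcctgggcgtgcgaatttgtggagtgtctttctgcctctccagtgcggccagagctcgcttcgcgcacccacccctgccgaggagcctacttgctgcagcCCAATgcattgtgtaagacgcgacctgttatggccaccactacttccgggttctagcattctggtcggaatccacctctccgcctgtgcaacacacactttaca
Pbx4, chr8:69832374-69832673, plus strand: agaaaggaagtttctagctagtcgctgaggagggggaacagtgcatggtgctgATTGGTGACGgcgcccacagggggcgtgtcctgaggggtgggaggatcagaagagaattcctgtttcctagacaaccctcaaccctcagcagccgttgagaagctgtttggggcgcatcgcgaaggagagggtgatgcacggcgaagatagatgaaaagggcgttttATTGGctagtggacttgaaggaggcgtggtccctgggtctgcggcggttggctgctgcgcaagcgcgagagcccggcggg

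The letters searched, on both strands, were TGACGTCA for the full cAMP-response element, found in 1.79% of 32851 promoters of this length, and TGACG for its core, which lies within the full element and was found in 20.8%. The MEIS site was searched as TGACAG, found in 19.2% of these promoters. The PBX-HOX site was searched as TGATTNAT, found in 3.22%, and the CCAAT box as CCAAT, found in 37.4%. The Meis1 promoter, of which 58.3% of bases were G or C, held 1 CCAAT box, at bases 197 to 201 of the window, and no match to the other 4 motifs. The Pbx4 promoter held the core of the cAMP-response element at bases 59 to 63, next to a CCAAT box on the minus strand at bases 54 to 58, and another such box at bases 221 to 225. Promoter sequences were at hand for 6 of the 9 genes, with 10 promoters in all. Of the other 4 genes, Pbx2 and Meis3 held none of these motifs in their windows, and Meis2 held 1 CCAAT box. Tgif1 has 5 listed promoters, of which 2 held a MEIS site, 1 a PBX-HOX site and 1 a CCAAT box. These are matches of letters in a window and say nothing of binding.

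Of the 9 genes, 6 had a mean of at least 1 RPKM and entered the test over 12037 genes. Of these 6, 1 passed an adjusted p of 0.05 in limma's moderated test on log2(RPKM + 1), and it was higher in the libraries labelled Asic3-null. Over all tested genes, 3.35% passed, 0.523% higher and 2.82% lower in those libraries. An unadjusted p under 0.05 was found for 2 of the 6, against 15.9% of all tested genes. The libraries of the groups did not overlap for 2 of the 6, both higher in the libraries labelled Asic3-null. Such genes made up 22.6% of all tested genes, 11.2% higher and 11.4% lower. The median log2 fold change was 0.11 over the 6 genes and 0.03 over all tested genes.

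**Figure D1:**
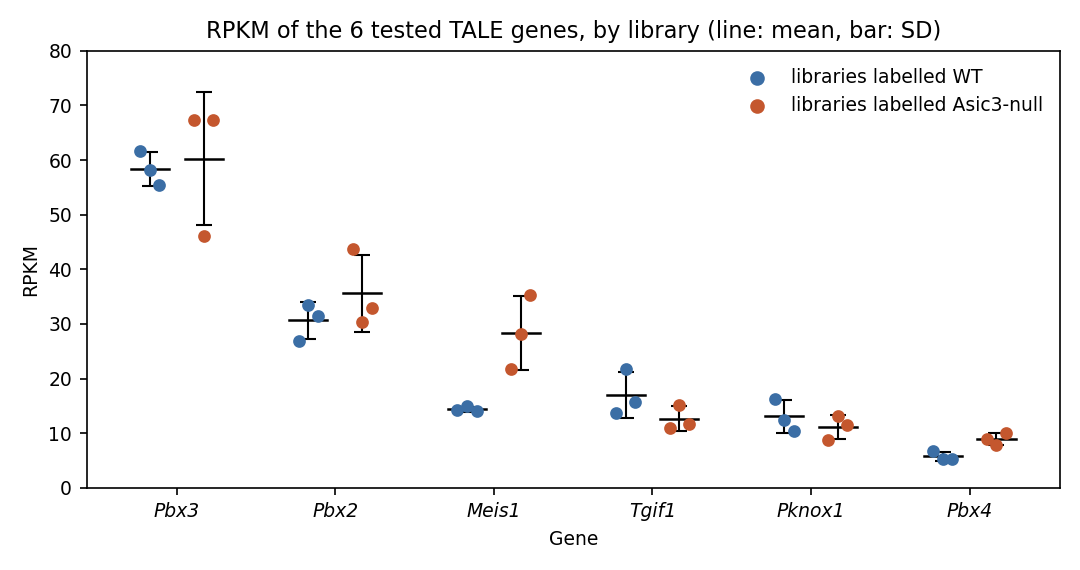
RPKM (vertical axis) of the 6 tested TALE genes in each library, 3 labelled WT and 3 labelled Asic3-null (points), with the mean (line) and SD (bar) of each group. The libraries of Meis1 and Pbx4 do not overlap between groups, and those of Pbx3, Pbx2, Tgif1 and Pknox1 do.

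Meis1, the MEIS family member best known in MLL-rearranged leukemia, was the gene that passed the test. Meis1 (Entrez 17268, chr11:18880428-19019651 of GRCm38) had 14.2, 14.9 and 14.0 RPKM in the libraries labelled WT and 21.7, 28.2 and 35.3 RPKM in those labelled Asic3-null. Every library labelled Asic3-null was above every library labelled WT. The inferred reads were 103, 100 and 114 against 173, 231 and 285, on a gene length of 3441 bases inferred from the same values. The mean level rose from 14.4 ± 0.48 to 28.4 ± 6.8 RPKM (SD, n = 3 each). The log2 fold change was 0.91 (SE 0.19, 95% interval 0.48 to 1.33, limma adjusted p = 0.0367), a 1.88-fold difference in RPKM + 1. An exact permutation test, two-sided, gave p = 0.10, the smallest that 3 libraries against 3 allow.

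The spread of Meis1 was unequal between groups. The coefficient of variation of Meis1 RPKM was 3.36% in the libraries labelled WT, below the 9.74% of counting error alone. It was 23.9% in the libraries labelled Asic3-null, above the 6.74% of counting error. Counting error here is the root mean square of the errors that the inferred reads of each library give. Asic3-null 1 was nearest to the other group and Asic3-null 3 farthest from it.

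The difference kept its direction in each of 14 alternative settings, with a log2 fold change between 0.74 and 1.08, but it passed the threshold in 6 of them. The limma adjusted p was 0.110 without WT 1, 0.0955 without WT 2, 0.0988 without WT 3, 0.101 without Asic3-null 2 and 0.127 without Asic3-null 3. It was 0.0244 without Asic3-null 1. With all libraries it was 0.0644 with no filter on low values and 0.0628 with no intensity trend, and it was 0.0154 with limma-voom on the inferred reads.

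**Figure D2:**
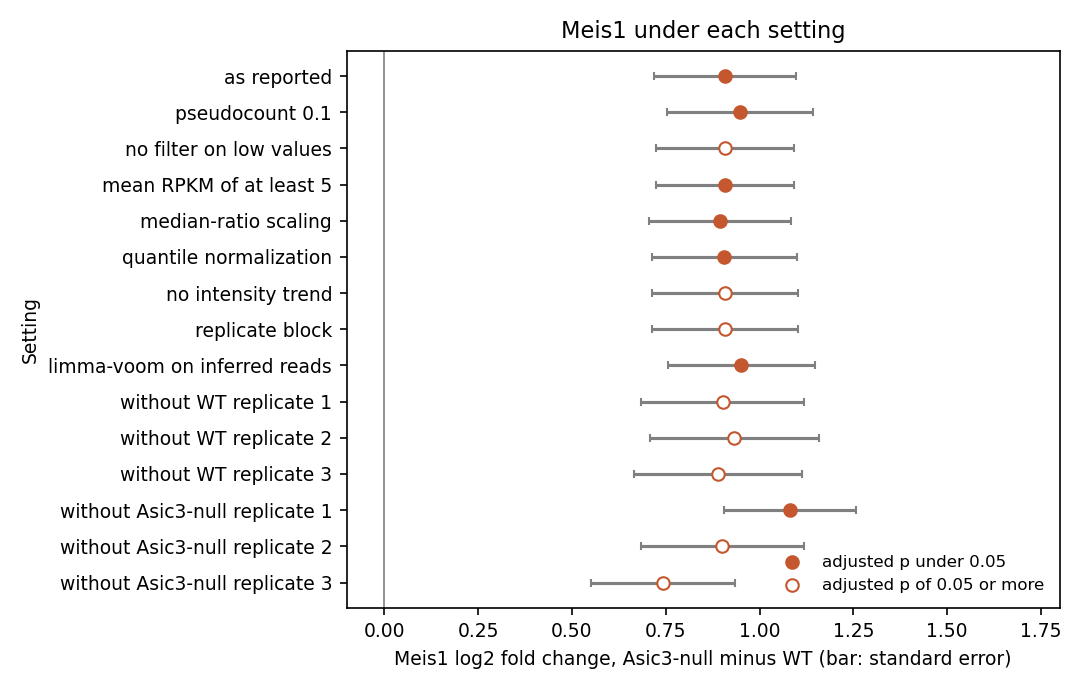
Log2 fold change of Meis1 (horizontal axis, libraries labelled Asic3-null minus those labelled WT) with its standard error (bar) under the reported setting and 14 alternatives. Filled points have an adjusted p under 0.05, and all estimates lie between 0.74 and 1.08.

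The other MEIS genes were at or near 0. Meis2 (Entrez 17536, chr2:115861264-116067537), a paralog of Meis1 that is active in many developing tissues, had 1 inferred read, in WT 2, where it stood at 0.0975 RPKM. It was listed at 0 in the other 5 libraries. Meis3 (Entrez 17537, chr7:16174012-16186510), the third family member, had 0, 1 and 3 inferred reads in the libraries labelled WT and 0, 0 and 1 in those labelled Asic3-null. Its level was 0, 0.288 and 0.712 RPKM against 0, 0 and 0.239 RPKM. The limit that a count of 0 allows, taken as 3 reads over a group, was 0.0888 and 0.0808 RPKM for Meis2 and 0.262 and 0.239 RPKM for Meis3 in the groups labelled WT and Asic3-null. No difference of Meis2 or Meis3 between groups was detectable at this depth. Of the MEIS transcripts measured in these LICs, nearly all thus came from Meis1 in both groups.

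Meis1 shares its partners with the PKNOX proteins, which use the same surface of PBX. Pknox1 (Entrez 18771, chr17:31564722-31607693), also called Prep1, had 16.3, 12.4 and 10.4 RPKM in the libraries labelled WT and 8.81, 13.2 and 11.6 RPKM in those labelled Asic3-null. The groups overlapped, WT 1 being the highest and Asic3-null 1 the lowest of the 6. For Pknox1 the log2 fold change was -0.20 (SE 0.22, 95% interval -0.69 to 0.29, limma adjusted p = 0.697). It was -0.04 without WT 1, -0.05 without Asic3-null 1, -0.34 without WT 3 and -0.32 without Asic3-null 2. Pknox2 (Entrez 208076, chr9:36890979-37147342), its paralog, had 1 inferred read, in WT 3, at 0.119 RPKM in that library. Its mean was 0.0398 RPKM in the group labelled WT and 0 in the group labelled Asic3-null. A total of 3 reads over a group would give 0.1321 and 0.1203 RPKM in these groups. Pknox2 was thus under the level that this depth could show.

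Within the libraries labelled WT, Meis1 and Pknox1 stood at like levels, and within those labelled Asic3-null Meis1 was the higher. The ratio of Meis1 to Pknox1 RPKM was 0.8726, 1.2001 and 1.3433 in the libraries labelled WT and 2.464, 2.139 and 3.053 in those labelled Asic3-null. Meis1 made up 46.6%, 53.8% and 55.4% of the summed RPKM of Meis1, Meis2, Meis3, Pknox1 and Pknox2 in the libraries labelled WT. In those labelled Asic3-null it made up 71.1%, 68.1% and 74.9%. The groups did not overlap in this share, which is taken within a library and does not depend on how libraries are scaled. By inferred reads, with no correction for length, the share was 40.2% to 50% against 62.3% to 70.0%.

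Of the PBX genes, Pbx3 and Pbx2 were the most abundant of the set by mean RPKM, and Pbx4 was the lowest of the 6 tested genes. Pbx3 (Entrez 18516, chr2:34171457-34372045), a PBX gene known to be expressed with Hoxa9 and Meis1 in MLL-rearranged leukemia, had 61.6, 58.2 and 55.4 RPKM in the libraries labelled WT. It had 67.3, 46.1 and 67.3 RPKM in those labelled Asic3-null, so that Asic3-null 2 was the lowest of the 6 and the groups overlapped. Pbx3 had a log2 fold change of 0.02 (SE 0.17, 95% interval -0.36 to 0.40, limma adjusted p = 0.965). Its sign was not fixed by these libraries, since it was -0.01 without WT 3, -0.07 without Asic3-null 1 and -0.06 without Asic3-null 3, but 0.20 without Asic3-null 2 and 0.06 without WT 1.

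Pbx2 (Entrez 18515, chr17:34592259-34597400), a widely expressed family member, had 26.8, 33.6 and 31.5 RPKM in the libraries labelled WT and 43.6, 30.4 and 32.8 RPKM in those labelled Asic3-null. The groups overlapped, with Asic3-null 1 above the other 5 libraries. For Pbx2 the log2 fold change was 0.20 (SE 0.17, 95% interval -0.19 to 0.59, limma adjusted p = 0.613), and it was 0.05 without Asic3-null 1, 0.11 without WT 1 and 0.30 without Asic3-null 2.

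Pbx4 (Entrez 80720, chr8:69832476-69872292), a family member best known from testis, had 6.71, 5.34 and 5.33 RPKM in the libraries labelled WT and 8.98, 7.79 and 10.1 RPKM in those labelled Asic3-null. The groups did not overlap. The inferred reads behind Pbx4 were only 19, 14 and 17 against 28, 25 and 32. The log2 fold change was 0.55 (SE 0.19, 95% interval 0.12 to 0.99), and Pbx4 did not pass the test (unadjusted p = 0.0182, limma adjusted p = 0.202) nor any of its 14 alternatives, in which the adjusted p lay between 0.129 and 0.431.

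**Figure D3:**
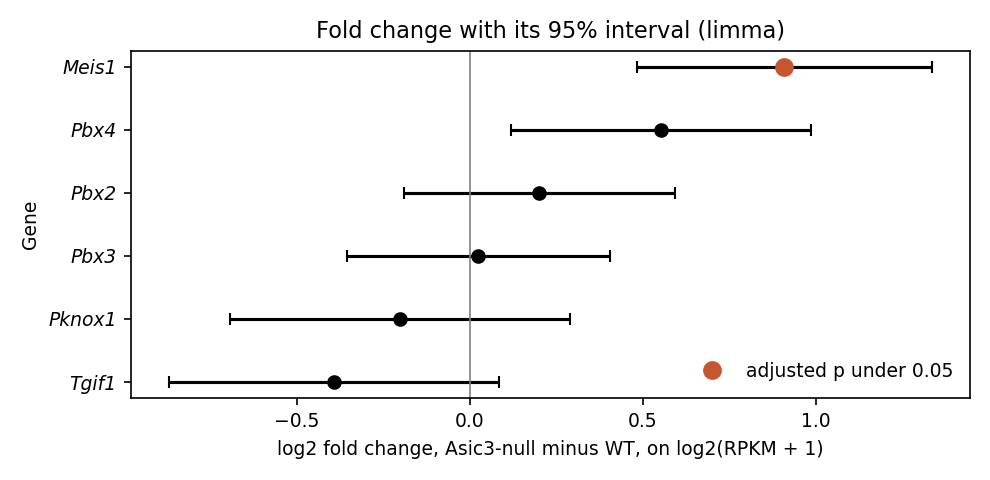
Log2 fold change on log2(RPKM + 1) (horizontal axis, libraries labelled Asic3-null minus those labelled WT) of the 6 tested genes with its 95% interval (bar) from limma. The interval lies above 0 for Meis1 and Pbx4, and only Meis1 has an adjusted p under 0.05.

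Tgif1 (Entrez 21815, chr17:70844205-70853532), a transcriptional repressor of the TALE class that also acts on SMAD signaling, had 13.7, 21.7 and 15.6 RPKM in the libraries labelled WT. It had 10.98, 15.23 and 11.63 RPKM in those labelled Asic3-null, where Asic3-null 2 lay within the range of the other group. Tgif1 had a log2 fold change of -0.39 (SE 0.21, 95% interval -0.87 to 0.09, limma adjusted p = 0.403), and it was below 0 in each of the 14 alternatives, at -0.21 without WT 2 (limma adjusted p = 0.724).

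Set in order of mean RPKM, the libraries labelled WT gave Pbx3, Pbx2, Tgif1, Meis1, Pknox1 and Pbx4, at 58.4, 30.6, 17.0, 14.4, 13.1 and 5.79 RPKM. The ranges of Tgif1, Meis1 and Pknox1 overlapped, and those of the other neighbors did not. The libraries labelled Asic3-null gave Pbx3, Pbx2, Meis1, Tgif1, Pknox1 and Pbx4, at 60.2, 35.6, 28.4, 12.6, 11.2 and 8.96 RPKM. There Meis1 overlapped with Pbx2 above it and stood apart from Tgif1 below it. Meis1 was above Pbx2 in Asic3-null 3, at 35.3 against 32.8 RPKM, and below Pbx2 in the other 5 libraries. Over all 6 libraries, the mean of Pbx3 was above that of 85.7% of the tested genes, Pbx2 above 73.3%, Meis1 above 61.6%, Tgif1 above 50.9%, Pknox1 above 44.9% and Pbx4 above 32.3%.

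Against its PBX partners, Meis1 was higher in each library labelled Asic3-null. The ratio of Meis1 to the summed RPKM of Pbx2, Pbx3 and Pbx4 was 0.150, 0.154 and 0.152 in the libraries labelled WT and 0.181, 0.334 and 0.320 in those labelled Asic3-null. Asic3-null 1 lay much nearer to the libraries labelled WT than Asic3-null 2 and 3 did. The mean log2 ratio differed by 0.82 (SE 0.29), a 1.77-fold difference, with an exact two-sided permutation p of 0.10, the smallest possible here. Without Asic3-null 1 the difference was 1.11, and without Asic3-null 2 or 3 it was 0.67 and 0.70. With Pbx3 alone in place of the sum it was 0.93.

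The PBX sum itself was 95.1, 97.1 and 92.3 RPKM in the libraries labelled WT and 119.9, 84.4 and 110.2 RPKM in those labelled Asic3-null, and the groups overlapped. Asic3-null 2, with the highest Meis1 to PBX ratio, had the lowest PBX sum of the 6 libraries. Pbx3 made up most of this sum, a mean of 61.6% in the libraries labelled WT and 57.3% in those labelled Asic3-null, with overlap between groups. Pbx4 made up 7.05%, 5.50% and 5.78% against 7.49%, 9.24% and 9.18%, with no overlap.

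**Figure D4:**
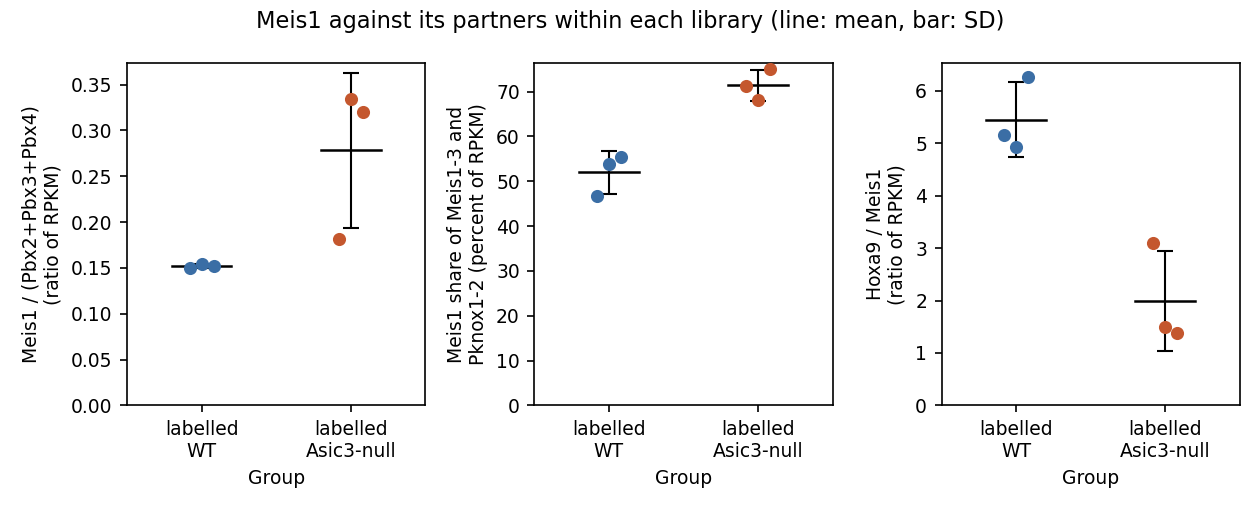
Meis1 against its partners within each library (points, 3 labelled WT and 3 labelled Asic3-null, with mean line and SD bar): the ratio of Meis1 to summed Pbx2, Pbx3 and Pbx4 RPKM (left), the Meis1 percent of summed Meis1, Meis2, Meis3, Pknox1 and Pknox2 RPKM (middle) and the ratio of Hoxa9 to Meis1 RPKM (right). The groups do not overlap in any panel. In the right panel this follows from Hoxa9 and Meis1 themselves, each without overlap and in opposite directions. Asic3-null 1 is nearest to the libraries labelled WT in the left and right panels.

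The remaining TALE and PBX-binding genes on a list of 10, among them Tgif2, Mkx, Pbxip1 and the Irx genes, were mostly low in these cells. Tgif2, a paralog of Tgif1, had 20 inferred reads over all 6 libraries. Irx1, Irx4, Irx6 and Mkx were listed at 0. Pbxip1, which encodes a PBX-interacting protein, was the 1 gene of the list that was tested. It had 28.2, 25.2 and 27.1 RPKM in the libraries labelled WT and 11.5, 23.0 and 23.9 RPKM in those labelled Asic3-null, with a log2 fold change of -0.51 (limma adjusted p = 0.374). Asic3-null 1 was the lowest by far, and without it the log2 fold change was -0.18.

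The tested HOX genes, whose products bind DNA with PBX and MEIS proteins, lay on the other side of 0 from Meis1. All of them lie in the Hoxa cluster on chromosome 6, so they do not stand for the whole HOX family. Outside this cluster, Hoxb4 missed the filter with a mean of 0.998 RPKM. It went the other way, at 0.722 against 1.27 RPKM from 12 against 23 inferred reads, and its groups overlapped. Hoxb3 and Hoxb9 had 2 and 1 inferred reads in all. Of 24 Hox genes listed, 8 were tested and all 8 had a log2 fold change below 0, with a median of -0.60, against 5471 of all 12037 tested genes below 0. One of the 8 was called, against 3.35% of all tested genes, and 4 had groups that did not overlap, all lower in the libraries labelled Asic3-null, against 11.4% of all tested genes. The called gene was Hoxa5, which fell from 28.5 ± 3.9 to 16.0 ± 0.48 RPKM (log2 fold change -0.78, limma adjusted p = 0.0287). Its adjusted p was 0.102 without WT 1, 0.0974 without WT 3, 0.0864, 0.0747 and 0.0929 without Asic3-null 1, 2 and 3, and 0.0384 without WT 2.

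Hoxa9, the partner of MEIS1 in MLL-rearranged leukemia, had 73.5, 73.5 and 87.8 RPKM in the libraries labelled WT and 67.1, 42.3 and 48.9 RPKM in those labelled Asic3-null. The groups did not overlap, but Hoxa9 was not called (log2 fold change -0.58, SE 0.18, limma adjusted p = 0.151). Hoxa10, a neighbor of Hoxa9 in the cluster, had 19.7 ± 3.5 against 10.7 ± 3.2 RPKM (log2 fold change -0.85, limma adjusted p = 0.112, and 0.0486 with limma-voom on the inferred reads). The ratio of Hoxa9 to Meis1 RPKM was 5.16, 4.92 and 6.27 in the libraries labelled WT and 3.090, 1.501 and 1.387 in those labelled Asic3-null. Hoxa9 was above Meis1 in every library. The groups did not overlap in the ratio, which follows from the lack of overlap of each gene in opposite directions and adds no further evidence.

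Genes known as targets of MEIS1 or of HOXA9 with MEIS1 did not share a direction. Of 11 listed, 7 were tested, 4 above 0 and 3 below, with a median log2 fold change of 0.22. One was called and it was lower, against 2.82% of all tested genes called lower. Ccnd3, a D-type cyclin, fell from 107.5 ± 13.3 to 68.7 ± 3.0 RPKM (log2 fold change -0.63, limma adjusted p = 0.0373). Its adjusted p was 0.122 without WT 1, 0.109 without WT 3, 0.0875, 0.0934 and 0.140 without Asic3-null 1, 2 and 3, 0.0959 with no intensity trend and 0.0519 with all genes above 0 tested. Myb, a progenitor transcription factor, had 195.5, 202.1 and 146.8 RPKM against 208.9, 230.4 and 252.4 RPKM, and did not pass the test (log2 fold change 0.35, limma adjusted p = 0.297). Flt3, a receptor tyrosine kinase of early progenitors, had 157.2 ± 30.8 against 196.3 ± 18.8 RPKM (log2 fold change 0.33, limma adjusted p = 0.358). Trib2, Epas1 and Pf4 were listed at 0.

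Of the genes that the study places around Meis1 (Stim1, Orai1, Camk1, Creb1 and Ldha), none of 5 was called in the same fit, against 3.35% of all tested genes, and none had an unadjusted p under 0.05, against 15.9%, or was called by limma-voom on the inferred reads. Camk1, a calmodulin-dependent kinase, had 26.9, 22.9 and 19.7 RPKM in the libraries labelled WT and 15.1, 18.2 and 21.7 RPKM in those labelled Asic3-null (log2 fold change -0.33, limma adjusted p = 0.423). Stim1, the calcium sensor of the endoplasmic reticulum, had 22.6 ± 1.8 against 26.5 ± 3.5 RPKM (log2 fold change 0.22, limma adjusted p = 0.532). Ldha, lactate dehydrogenase A, had 285.8, 250.4 and 410.8 RPKM against 297.4, 424.4 and 315.3 RPKM, and its log2 fold change was 0.15 (limma adjusted p = 0.778), turning below 0 without WT 2 or without Asic3-null 2. These are transcript levels and hold no measure of phosphorylation or protein.

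All 10 genes on the list of TGIF1 corepressor and SMAD partners were tested and none was called by limma or by limma-voom on the inferred reads, nor had any an unadjusted p under 0.05, against 3.35% called and 15.9% with such a p over all tested genes. The groups did not overlap for 3 of them, each higher in the libraries labelled Asic3-null, against 11.2% of all tested genes. They were Ctbp1 and Hdac2, a corepressor and a histone deacetylase, and Sin3a, a corepressor scaffold. Ctbp1 had 147.0 ± 10.80 against 176.2 ± 10.98 RPKM (log2 fold change 0.26, limma adjusted p = 0.320). The median log2 fold change of the list was 0.11.

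Among 9159 other genes with a mean of at least 5 RPKM, the 5 whose log2(RPKM + 1) over the 6 libraries was most like that of Meis1 were Ptgr1, Utp20, Zc3h12c, Gm9703 and Cdc23, with Pearson r from 0.9746 to 0.9957. These correlations are over 6 libraries in 2 groups and describe mainly the difference between groups and the order of the libraries labelled Asic3-null. Ptgr1, a prostaglandin reductase, had 25.99, 28.56 and 28.11 RPKM against 40.6, 49.1 and 61.1 RPKM. Of the TALE genes, Pbx4 had r = 0.87 with Meis1, Pbx2 0.23, Pbx3 0.05, Pknox1 -0.19 and Tgif1 -0.53. Hoxa9 had r = -0.90.

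The cells themselves differed between groups in maturation markers. All 8 neutrophil marker genes tested (Camp, Ltf, Ngp, Lcn2, Mmp8, Mmp9, S100a8 and S100a9) were called lower, against 2.82% of all tested genes. Their summed level was 208 to 346 RPKM where the label was Asic3-null against 3808 to 4243 RPKM where it was WT. Of the genes behind the sort, Itgam, which encodes part of Mac-1, fell from 76.8 ± 18.8 to 14.0 ± 2.5 RPKM (limma adjusted p = 0.000720). Kit had 11.1 ± 3.6 against 17.6 ± 3.0 RPKM (limma adjusted p = 0.219). In sorted bulk cells, a different share of maturing cells and a different level per cell cannot be told apart, and the part of this difference in the Meis1 result was not tested.

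Marker sums of other cell types were below those of the neutrophil marker genes in every library. Megakaryocytes, in which Meis1 is known to be expressed, had summed markers of 12.7 to 17.3 RPKM in the libraries labelled WT and 12.4 to 23.8 RPKM in those labelled Asic3-null, with Pf4 listed at 0 in all 6. Of the 6 megakaryocyte genes 2 were tested. Itga2b had 7.73 ± 2.68 against 16.3 ± 5.8 RPKM (limma adjusted p = 0.145), and Gp1bb was called lower. The 6 erythroid markers with a value summed to 2.84 to 10.3 RPKM against 0.972 to 2.41 RPKM. The 6 stromal and endothelial markers summed to 0.255 to 0.350 RPKM against 0.0917 to 0.229 RPKM. Neither sum overlapped between groups, the WT label having the higher values, as for 11.4% of all tested genes. Both sums rest on few inferred reads. No stromal or endothelial gene had more than 6 reads over all 6 libraries, and no erythroid gene more than 18. Only Hba-a1 among them was tested (7 reads, limma adjusted p = 0.298), so these sums do not establish a difference in these cell types. The 5 T cell markers summed to at most 0.502 RPKM in any library. The 5 B cell markers summed to 37.32 to 49.996 RPKM over the libraries, almost all of it Cd79b, with Ms4a1 listed at 0. The part of these markers in the values of the TALE genes was not tested.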

How the data were processed

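Libraries were made from total RNA of sorted LICs without strand marking. Per the submitters' processing notes, the authors used CASAVA 1.8.2, TopHat2 2.0.12 and the GRCm38 genome. They deposited the RPKM of every listed gene in each library as 1 table. The counting tool and annotation are not given in the sources used here. Overlapping noncoding genes (Gm16141 with Meis1, G630016G05Rik with Meis2, Gm34652 and Gm34538 with Pknox2) had no row, so reads from them cannot be told apart from those of the members.

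Symbols, positions and promoters came from RefSeq for GRCm38.p6, which named 25275 of the 27179 genes. Whole reads were inferred from RPKM, taking the relative depth from genes with equal reads and the library size from lengths in whole bases. The 16825 genes above 0 were each within 0.01 of a whole read number. For genes of few reads the smallest whole number was taken. Counting errors come from these reads, which carry no molecular identifiers, and cover counting error only.

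Genes with a mean of at least 1 RPKM (12037) were compared by limma's moderated test (version 3.58.1, R 4.3.3) on log2(RPKM + 1) (intensity trend, no term besides the genotype label, two-sided, Benjamini-Hochberg over all tested genes, threshold 0.05). This pseudocount understates fold changes of low genes. Ratios were compared by exact permutation. Steps were tested on simulated data, and the rest ran in Python 3.11.15.

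The members, lists and tests were chosen with earlier results of these data known. Named were all 9 members, from each list the called genes and, where fewer than 3 were called, those with the lowest p up to 3, genes checking labels or cell types, and the 5 genes most like Meis1. A few genes of the lists are not reported here. Alternatives were a pseudocount of 0.1, no filter, a mean of at least 5 RPKM, median-ratio scaling, quantile normalization, no trend, limma-voom on inferred reads, leaving out 1 library at a time, a block for the replicate number, and other denominators for the ratio.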

Additional observations from a re-analysis of the deposited data

How the results depend on the processing

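The log2 fold change of Meis1 stayed above 0 in all 14 alternatives. It was 0.91 but not past the threshold without the intensity trend, with the replicate block or with no filter, and 0.74 to 1.08 with 1 library left out, where only the fit without Asic3-null 1 passed. The number of TALE genes called was therefore 0 in these settings and 0 to 1 over the fits without 1 library, and 1 otherwise. No other TALE gene was called in any alternative. The log2 fold change of Pbx3 was -0.01 without WT 3, -0.065 without Asic3-null 1 and -0.064 without Asic3-null 3, within a range of -0.065 to 0.20 over the fits without 1 library. That of Ldha was -0.0053 without WT 2 and -0.011 without Asic3-null 2, within -0.011 to 0.35. These fits use fewer libraries.

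Over the whole table, 403 genes were called, 203 to 293 with 1 library left out and 543 with limma-voom. With the replicate number as a block, 246 genes were called and the adjusted p of Meis1 was 0.0761. The block also ended the calls of Asic3 (adjusted p = 0.0598), Hoxa5 (0.0784) and Ccnd3 (0.0929). The same-numbered libraries did not deviate together (correlations 0.06, -0.06 and -0.12), so the numbers were not taken as pairs. The ratio of Meis1 to the PBX sum kept its direction in its 10 alternatives, in which no p under 0.10 was possible. At this depth the genes with under 5 reads in all (Meis2 and Pknox2) or 5 (Meis3) allow no comparison.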
